A study of Mus musculus with 9 samples.

Results

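Notch signaling genes were followed in primary articular chondrocytes, the only resident cells of joint cartilage, which lay down its matrix of collagen and proteoglycan. The set held 10 of the 55471 genes listed for each culture, chosen by name. They were the 4 receptors Notch1 to Notch4, the 3 ligands Jag1, Jag2 and Dll1, and the 3 target genes Hes1, Hey1 and Heyl. RNA was sequenced from 9 cultures in 3 groups of 3, called Control, Ad-OSCAR and Ad-OSCAR + 5-ASA. Ad-OSCAR is an adenovirus that makes cells express osteoclast-associated receptor (OSCAR), a collagen receptor, and 5-ASA (5-aminosalicylic acid) is an anti-inflammatory drug that the study tested as a competitor of collagen for OSCAR. All cells were taken from the knees of wild-type mice at postnatal day 5. By the labels they were grown for 3 days, infected for 2 h at 400 MOI (infectious virus particles per cell) and kept for 36 h before 5-ASA was added. The study's methods give a different virus dose and other times, and state that the Control cells received a control adenovirus and that all plates were coated with COLpep, a collagen peptide that binds OSCAR. Whether cells of several pups were pooled is not stated in the sources used here, and OSCAR was expressed from a virus rather than from its own gene.

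Notch receptors are cut after they bind a Jagged or Delta-like ligand on a neighboring cell. The released intracellular part enters the nucleus and joins the DNA-binding protein RBPJ and a Mastermind-like coactivator to switch on targets, among them the repressors of the Hes and Hey families. In cartilage the pathway is known for holding back early chondrocyte differentiation, and it has been studied in osteoarthritis.

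In the cultures labelled Control, Oscar had 3 to 4 counts. It had 173445 to 187278 counts in Ad-OSCAR cultures and 80766 to 94199 with 5-ASA. The chondrocyte markers Col2a1, Acan, Col9a1, Col9a2, Col11a2, Matn3, Hapln1, Comp and Sox9 were present in all cultures, with a summed level of 14071 to 16041 TPM (transcripts scaled to gene length and library) in Control, 890 to 1023 in Ad-OSCAR and 985 to 1173 in Ad-OSCAR + 5-ASA cultures. All 9 of them fell with Ad-OSCAR, and 5 of 9 rose again with 5-ASA. Levels of the Notch genes are therefore levels in cells whose cartilage markers differed strongly between the groups, and in such bulk samples fewer cells of a type and less RNA per cell cannot be told apart. Total counts ranged from 19733448 to 28192740 per culture.

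Promoter windows of 300 bases around the RefSeq start sites, in mouse build GRCm38.p6, were given for 7 of the 10 genes. No entry was given for Hes1, Hey1 and Heyl. The windows below are those of Notch3 and Dll1, which had the largest fitted increases with Ad-OSCAR, and of Jag1, which increased with Ad-OSCAR and again with 5-ASA. Dll1 has a pair of RefSeq starts. Capitals mark matches on either strand to CACGNG, a core bound by Hes and Hey repressors, or to TGANTCA, the AP-1 core.
Notch3, chr17:32166841-32167140, minus strand: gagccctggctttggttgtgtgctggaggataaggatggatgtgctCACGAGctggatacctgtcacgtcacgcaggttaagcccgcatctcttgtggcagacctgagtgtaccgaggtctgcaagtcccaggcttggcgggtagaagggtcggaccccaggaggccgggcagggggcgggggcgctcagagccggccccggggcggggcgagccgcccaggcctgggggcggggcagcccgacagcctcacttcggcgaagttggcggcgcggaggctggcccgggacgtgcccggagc
Dll1, chr17:15375774-15376073, minus strand: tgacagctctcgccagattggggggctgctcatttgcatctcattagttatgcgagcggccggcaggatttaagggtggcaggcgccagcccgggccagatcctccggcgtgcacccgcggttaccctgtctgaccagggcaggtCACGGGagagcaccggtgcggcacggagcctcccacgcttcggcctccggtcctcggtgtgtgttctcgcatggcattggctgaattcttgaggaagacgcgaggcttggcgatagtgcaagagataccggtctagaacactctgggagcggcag
Dll1, chr17:15376883-15377182, minus strand: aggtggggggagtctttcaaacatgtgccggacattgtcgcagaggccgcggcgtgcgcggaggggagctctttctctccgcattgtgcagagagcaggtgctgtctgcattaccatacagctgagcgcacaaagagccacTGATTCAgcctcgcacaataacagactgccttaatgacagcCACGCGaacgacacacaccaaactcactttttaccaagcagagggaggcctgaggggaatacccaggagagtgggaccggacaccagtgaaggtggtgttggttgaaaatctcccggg
Jag1, chr2:137116471-137116770, minus strand: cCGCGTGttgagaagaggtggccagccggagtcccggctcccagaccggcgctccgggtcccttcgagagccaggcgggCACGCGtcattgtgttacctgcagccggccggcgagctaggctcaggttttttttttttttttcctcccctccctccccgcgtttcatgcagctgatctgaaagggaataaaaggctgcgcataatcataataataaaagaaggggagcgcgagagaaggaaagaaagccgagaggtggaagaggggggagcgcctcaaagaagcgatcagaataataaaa
The RBPJ core TGGGAA was in none of the 8 windows of the 7 genes, against 25.6% of all 32851 RefSeq windows of this length. CACGNG was in the windows of Notch2, Notch3, Jag1, Jag2 and Dll1, and in 27.5% of all windows. TGANTCA was in 1 of the Dll1 windows and in that of Notch4, and in 7.81% of all windows. Such matches describe letters in a short window and do not show that a factor bound there.

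Per transcript length, Notch2 was the most abundant of the 10 genes in every group. Its mean TPM was 30.0 ± 0.775 (SD, n = 3 here and below) in Control, 37.6 ± 0.615 in Ad-OSCAR and 36.0 ± 2.98 in Ad-OSCAR + 5-ASA cultures. Jag1 came next in every group, at 6.40 ± 0.570, 8.77 ± 0.232 and 10.6 ± 0.483 TPM in the same order of groups. In Control cultures Jag1 was followed by Notch1 at 4.68 ± 0.885 and Hes1 at 4.54 ± 0.325 TPM, whose ranges overlapped. Notch3, Jag2, Dll1, Hey1 and Notch4 then lay between 1.31 and 0.513 TPM, and each of them overlapped its neighbor in the order. With Ad-OSCAR the order below Jag1 was Hes1 at 7.49 ± 0.584, Notch3 at 5.72 ± 0.547, Notch1 at 4.91 ± 0.117 and Dll1 at 1.79 ± 0.272 TPM, with no overlap between neighbors, so Notch3 stood above Notch1 in Ad-OSCAR and below it in Control cultures. With 5-ASA the order was unchanged, but Hes1 overlapped Notch3 and Notch3 overlapped Notch1. Jag2, Notch4 and Hey1 were last of the detected genes in both Ad-OSCAR groups and were not separated from one another. Heyl had 1 count in 1 Ad-OSCAR culture and 0 in the other 8 cultures. A count of 0 allows up to 3 counts, or at most 0.152 CPM (counts scaled to library size) in the shallowest culture.

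**Figure D1:**
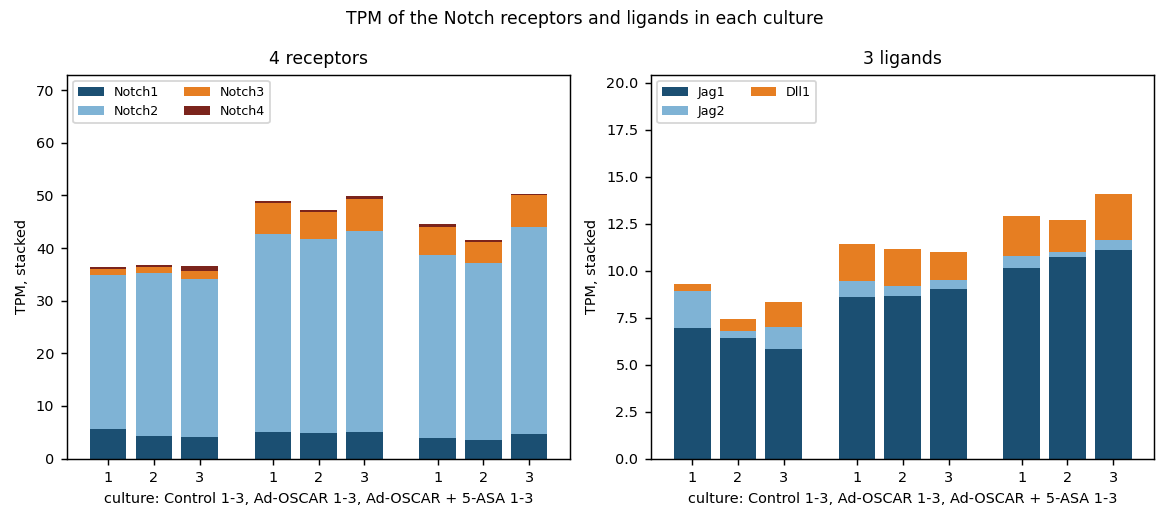
Stacked TPM of the 4 Notch receptors (left) and the 3 ligands (right) in each of the 9 cultures, numbered 1 to 3 within Control, Ad-OSCAR and Ad-OSCAR + 5-ASA. Notch2 makes up most of each receptor bar and Jag1 most of each ligand bar, and the Notch3 segment is larger in all 6 cultures with Ad-OSCAR than in the 3 Control cultures.

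Notch2 held 82.2% ± 1.60 of the summed receptor TPM in Control, 77.3% ± 0.879 in Ad-OSCAR and 79.1% ± 1.56 in Ad-OSCAR + 5-ASA cultures. Notch3 held 3.58% ± 0.810, 11.7% ± 0.832 and 11.1% ± 1.24. The share of Notch1 was 12.8% ± 2.48, 10.1% ± 0.136 and 8.72% ± 0.336, and that of Notch4 was at most 1.40% in any group mean. The receptors together summed to 36.5 ± 0.237 TPM in Control, 48.7 ± 1.31 in Ad-OSCAR and 45.5 ± 4.43 in Ad-OSCAR + 5-ASA cultures. Among the ligands Jag1 held 77.1% ± 8.55, 78.6% ± 3.45 and 80.5% ± 3.39 of the summed TPM, and Dll1 held 9.56% ± 6.24, 16.0% ± 2.24 and 15.7% ± 2.29. The summed ligand level was 8.34 ± 0.930, 11.2 ± 0.211 and 13.2 ± 0.756 TPM. The Control share of Dll1 was 6.18% without Control culture 3 and 12.3% without Control culture 1, and from CPM per mean effective length it was 5.48%. These shares are described and were not tested.

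Of the 10 genes, 9 passed the filter on low counts and were tested with edgeR. With Ad-OSCAR, 7 of them rose against Control at an adjusted p below 0.05 and 0 fell. Notch4, among those that rose, was admitted by the filter only through the cultures with OSCAR, where its counts were higher. Against Control it could therefore be tested only as a rise. Jag2 and Hey1 did not pass (adjusted p = 0.798 and 0.553). Among all 15362 genes tested 65.0% passed the same test, 32.7% as higher and 32.2% as lower, so that a passing gene was common in this comparison. The Ad-OSCAR and Control cultures did not overlap in CPM for the same 7 genes, nor for 69.0% of all genes. The median log2 fold change of the 9 genes was 0.47, against 0.02 over all genes. By the study's limit for OSCAR, a log2 fold change above 1.5 with an adjusted p below 0.05, 2 genes were higher, Notch3 and Dll1, and 0 were lower, where 4.57% of all genes were higher and 5.39% lower.

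**Figure D2:**
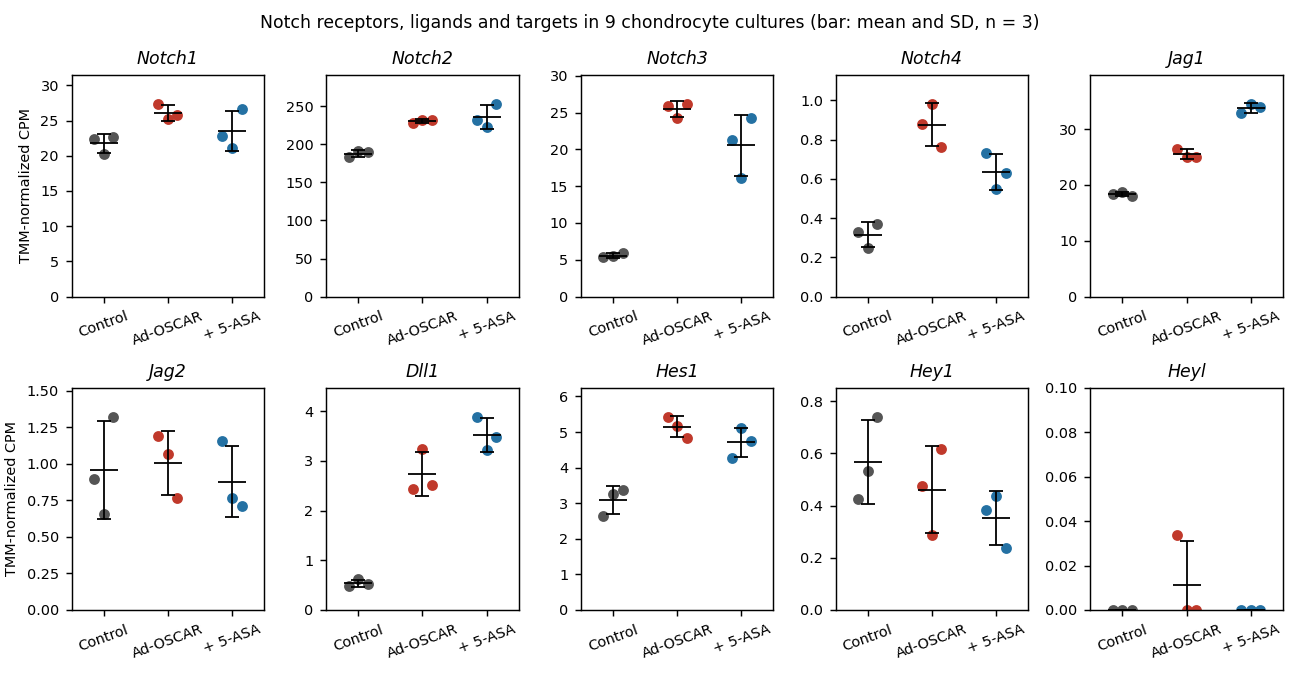
TMM-normalized CPM of the 10 genes in each culture (points), with the mean and SD of each group of 3 (lines); each panel has its own axis from 0. Notch3 stood between 5.33 and 5.92 CPM in Control and between 16.1 and 26.2 CPM in the other 6 cultures, and Jag1 formed 3 separate steps.

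Among the receptors, Notch3 changed most. Notch3 lies on chromosome 17 from 32120820 to 32166852 on the minus strand (GRCm38, here and for the genes below). Its TMM-normalized level was 5.33, 5.47 and 5.92 CPM in the 3 Control cultures, 25.9, 24.2 and 26.2 CPM in the Ad-OSCAR cultures and 21.3, 16.1 and 24.3 CPM in the Ad-OSCAR + 5-ASA cultures. All 6 cultures with OSCAR were above all Control cultures, while the treated and untreated Ad-OSCAR cultures overlapped at their edge. The rise with Ad-OSCAR was 4.58-fold, a log2 fold change of 2.20 (SE 0.13, adjusted p = 2.61e-11). It rested on 112 to 133 counts in Control and 591 to 764 counts in Ad-OSCAR cultures. The opposite-strand gene Gm17276, which overlaps Notch3, had 1 to 5 counts in any culture. The summed level of the mural cell markers Rgs5, Cspg4, Pdgfrb, Kcnj8, Abcc9, Myh11 and Des, a cell type known for Notch3, was 137 to 146 TPM in Control and 81.2 to 84.6 TPM in Ad-OSCAR cultures. Most of this sum was Cspg4 and Pdgfrb, with means of 95.04 and 43.96 TPM in Control and 36.83 and 31.52 TPM in Ad-OSCAR cultures. Rgs5 went the other way, from a mean of 1.99 TPM in Control to 13.86 TPM in Ad-OSCAR cultures. Of the 5 mural markers tested, Rgs5 rose, Cspg4 and Pdgfrb fell, and Myh11 and Des did not pass the test. None of the mural markers was at 0 in all cultures of a group, and their part in the Notch3 result was not tested.

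Notch4, best known from endothelial cells, was the scarcest receptor (chromosome 17, 34564268 to 34588503, plus strand). It had 7, 6 and 7 counts in Control, 26, 24 and 21 in Ad-OSCAR and 19, 15 and 16 in Ad-OSCAR + 5-ASA cultures, so the 3 groups did not overlap in counts. Its log2 fold change with Ad-OSCAR was 1.48 (SE 0.33, adjusted p = 0.000798), just under the study's limit. On the TPM scale the change was not seen, at 0.27, 0.47 and 0.80 TPM in Control and 0.36, 0.39 and 0.56 TPM in Ad-OSCAR cultures, a log2 change of -0.12 (adjusted p = 0.836, limma). TPM divides a count by an effective length that RSEM set anew in each culture, and for Notch4 that length was 755 to 2005 bases in Control and 2299 to 4137 bases in Ad-OSCAR cultures. The direction for Notch4 therefore differs between counts and TPM. The endothelial markers Pecam1, Cdh5, Tek, Kdr, Emcn, Esam, Tie1 and Vwf summed to 0.50 to 1.48 TPM in Control, 2.34 to 3.46 in Ad-OSCAR and 1.36 to 1.71 in Ad-OSCAR + 5-ASA cultures. Only Tek and Vwf of the 8 passed the filter, and both rose with Ad-OSCAR and fell with 5-ASA. Vwf had 3 to 11 counts in Control and 58 to 82 in Ad-OSCAR cultures, so the filter admitted it through the cultures with OSCAR. The defining markers Cdh5, Emcn and Tie1 had at most 2 counts in any culture, Pecam1 had at most 6, and the part of these markers in the Notch4 result was not tested.

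Notch1 and Notch2 rose less. Notch1 (chromosome 2, 26457903 to 26516663, minus strand) is the best known of the receptors. It stood at 22.37, 20.18 and 22.73 CPM in Control and 27.41, 25.22 and 25.72 CPM in Ad-OSCAR cultures. In Ad-OSCAR + 5-ASA cultures it stood at 22.81, 21.05 and 26.64 CPM. The Control and Ad-OSCAR cultures did not overlap, and the treated cultures spanned both. Its log2 fold change with Ad-OSCAR was 0.27 (SE 0.08, adjusted p = 0.0065), and on the TPM scale it was 0.08 and did not pass (adjusted p = 0.652). The opposite-strand gene 0610009E02Rik, which overlaps Notch1, had 21 to 47 counts, and Gm13568 had 2 to 10. Notch2 (chromosome 3, 98013527 to 98150361, plus strand) stood at 183, 191 and 189 CPM in Control, 228, 232 and 232 in Ad-OSCAR and 232, 222 and 253 in Ad-OSCAR + 5-ASA cultures. All 6 cultures with OSCAR were above the Control cultures, and the rise was 1.23-fold (log2 0.30, SE 0.05, adjusted p = 3.65e-05). The overlapping genes Gm42819 and Gm42820 on its strand had at most 3 and 18 counts.

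Dll1 rose most among the ligands. Dll1, a Delta-like ligand (chromosome 17, 15367354 to 15376872, minus strand), had 10, 15 and 10 counts in Control, 72, 79 and 69 in Ad-OSCAR and 101, 88 and 88 in Ad-OSCAR + 5-ASA cultures. The lowest count in a culture with OSCAR, 69, was far above the highest Control count, 15. The rise with Ad-OSCAR was 4.97-fold (log2 2.31, SE 0.23, adjusted p = 6.78e-08). Its TPM ran from 0.37 to 1.36 in Control and from 1.48 to 1.97 in Ad-OSCAR cultures, a log2 change of 1.25 that was under the study's limit, and the effective length ran from 638 to 2073 bases in Control and from 2153 to 2888 bases in Ad-OSCAR cultures. Jag1, the main ligand by level (chromosome 2, 137081456 to 137116644, minus strand), stood at 18.3, 18.7 and 18.1 CPM in Control, 26.5, 25.1 and 25.0 in Ad-OSCAR and 32.9, 34.6 and 34.0 in Ad-OSCAR + 5-ASA cultures. No culture of one group overlapped another group. With Ad-OSCAR it rose 1.39-fold (log2 0.47, SE 0.06, adjusted p = 9.63e-07). Jag2 (chromosome 12, 112907819 to 112929776, minus strand) had 19, 16 and 25 counts in Control, 35, 26 and 21 in Ad-OSCAR and 30, 21 and 18 in Ad-OSCAR + 5-ASA cultures. These groups overlapped, and the log2 difference between Ad-OSCAR and Control was 0.10 with a 95% interval from -0.56 to 0.75.

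Of the targets, Hes1 rose. Hes1, the repressor most widely used as a readout of Notch activity (chromosome 16, 30064384 to 30067796, plus strand), stood at 2.64, 3.25 and 3.38 CPM in Control, 5.43, 5.17 and 4.84 in Ad-OSCAR and 4.27, 5.11 and 4.74 in Ad-OSCAR + 5-ASA cultures. All cultures with OSCAR were above all Control cultures. The rise with Ad-OSCAR was 1.67-fold (log2 0.74, SE 0.14, adjusted p = 0.000121). Hey1, another repressor (chromosome 3, 8663359 to 8667256, minus strand), had 9, 13 and 14 counts in Control, 14, 7 and 17 in Ad-OSCAR and 10, 12 and 6 in Ad-OSCAR + 5-ASA cultures. The groups overlapped, and its log2 difference between Ad-OSCAR and Control was -0.27 (95% interval -1.07 to 0.53). At this depth a change of Hey1 smaller than the interval was not detectable. Heyl (chromosome 4, 123233556 to 123249875, plus strand) could not be compared.

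**Figure D3:**
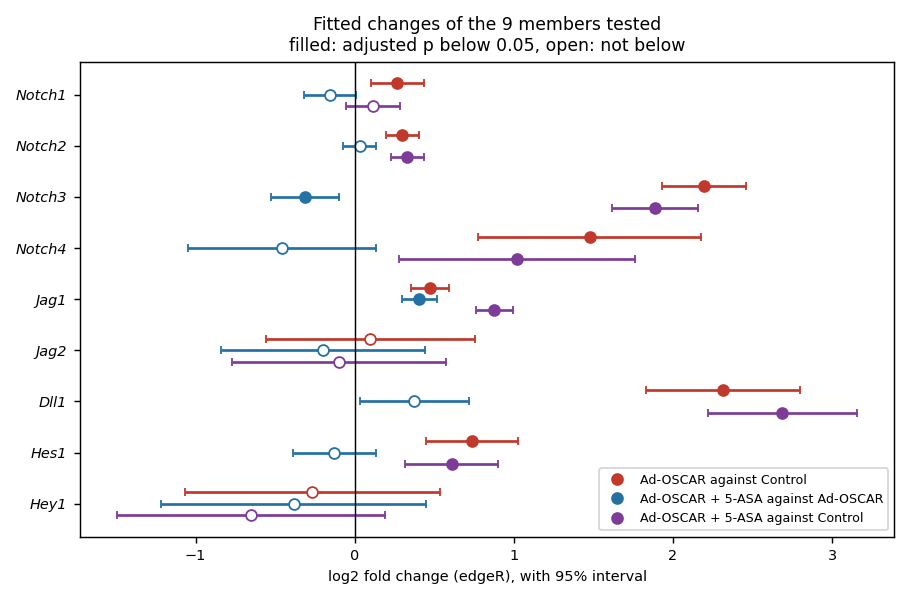
Fitted log2 fold changes (edgeR, horizontal axis) of the 9 genes tested in 3 comparisons, with 95% intervals; filled points had an adjusted p below 0.05. Notch3 and Dll1 lie above 2 with Ad-OSCAR, and for Ad-OSCAR + 5-ASA against Ad-OSCAR only the Jag1 and Notch3 points are filled, on opposite sides of 0.

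The next comparison asked what 5-ASA did to cells that already carried Ad-OSCAR. Of the 9 genes, 1 was higher with 5-ASA, Jag1, and 1 was lower, Notch3, at an adjusted p below 0.05. Among all genes 17.8% passed, 10.4% as higher and 7.38% as lower. The median log2 fold change of the 9 genes was -0.16, and over all genes it was -0.00435. By the study's limits for 5-ASA, a fold change above 1.5 with an unadjusted p below 0.05, 0 of the 9 genes were higher and 0 lower, where 2.27% of all genes were higher and 1.87% lower. The study's methods state these limits for treated Ad-OSCAR cells against Ad-Control cells, a comparison given below. Oscar itself was 1.96-fold lower with 5-ASA (log2 -0.97, SE 0.06), so the treated cultures also held less of the receptor transcript.

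Jag1 rose 1.32-fold with 5-ASA (log2 0.40, SE 0.05, adjusted p = 2.89e-05), to above the highest Ad-OSCAR culture in all 3 treated cultures. On the TPM scale the increase was 0.27 and just missed the test (adjusted p = 0.0652, limma). Notch3 was 1.24-fold lower (log2 -0.31, SE 0.10, adjusted p = 0.0407). Its level in treated culture 3, 24.31 CPM, was above that of Ad-OSCAR culture 2, 24.23 CPM, and treated culture 2 at 16.1 CPM was the lowest. The Notch3 call was kept in 9 of 17 alternative analyses, with adjusted p from 0.000549 to 0.578, and it was lost with DESeq2 (adjusted p = 0.0699), on TPM (adjusted p = 0.578) and when any of 6 single cultures was left out. Those 6 were Control culture 1, each of the 3 Ad-OSCAR cultures, and treated cultures 1 and 2 (adjusted p from 0.0505 to 0.174). Dll1 did not pass (log2 0.37, 95% interval 0.03 to 0.72, unadjusted p = 0.034, adjusted p = 0.127), and its groups overlapped in CPM, where treated culture 2 at 3.21 was below Ad-OSCAR culture 2 at 3.24.

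For the other genes the interval of the 5-ASA difference contained 0. It ran from -0.32 to 0.01 for Notch1, from -0.07 to 0.13 for Notch2, from -1.05 to 0.13 for Notch4, from -0.84 to 0.44 for Jag2, from -0.39 to 0.13 for Hes1 and from -1.22 to 0.45 for Hey1, all in log2 units. The Notch2 interval was the narrowest of these, while those of Notch4, Jag2 and Hey1 leave room for much larger differences. Notch1 passed with treated culture 3 left out (log2 -0.25, adjusted p = 0.0238). The CPM values of the treated and untreated groups did not overlap for 2 of the 9 genes, Jag1 and Notch4, and for 33.8% of all genes.

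Against Control, the treated cultures had 6 of the 9 genes higher and 0 lower, where 63.2% of all genes passed, 31.4% as higher and 31.8% as lower. The CPM values did not overlap for those 6 genes, nor for 66.6% of all genes. These comparisons share cultures with those above, so they add no independent cultures. The log2 fold changes were 2.69 for Dll1 (SE 0.22), 1.88 for Notch3 (SE 0.13), 1.02 for Notch4 (SE 0.35, adjusted p = 0.0175), 0.88 for Jag1 (SE 0.06), 0.61 for Hes1 (SE 0.14) and 0.33 for Notch2 (SE 0.05). Notch4 lost this call with DESeq2 (adjusted p = 0.097) and without Control culture 2 or treated culture 1 (adjusted p = 0.0852 and 0.0668), and on TPM it lost the call and the direction turned (log2 -0.06, adjusted p = 0.921). Notch1 differed by 0.11 (95% interval -0.06 to 0.28) and did not pass, and it passed without treated culture 2 (log2 0.19, adjusted p = 0.0485). Past a fold change of 1.5 with an unadjusted p below 0.05 stood Dll1, Notch3, Notch4, Jag1 and Hes1, 5 of 9 genes, where 14.6% of all genes were higher by that limit. This is the comparison for which the study's methods state the limits for 5-ASA.

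**Figure D4:**
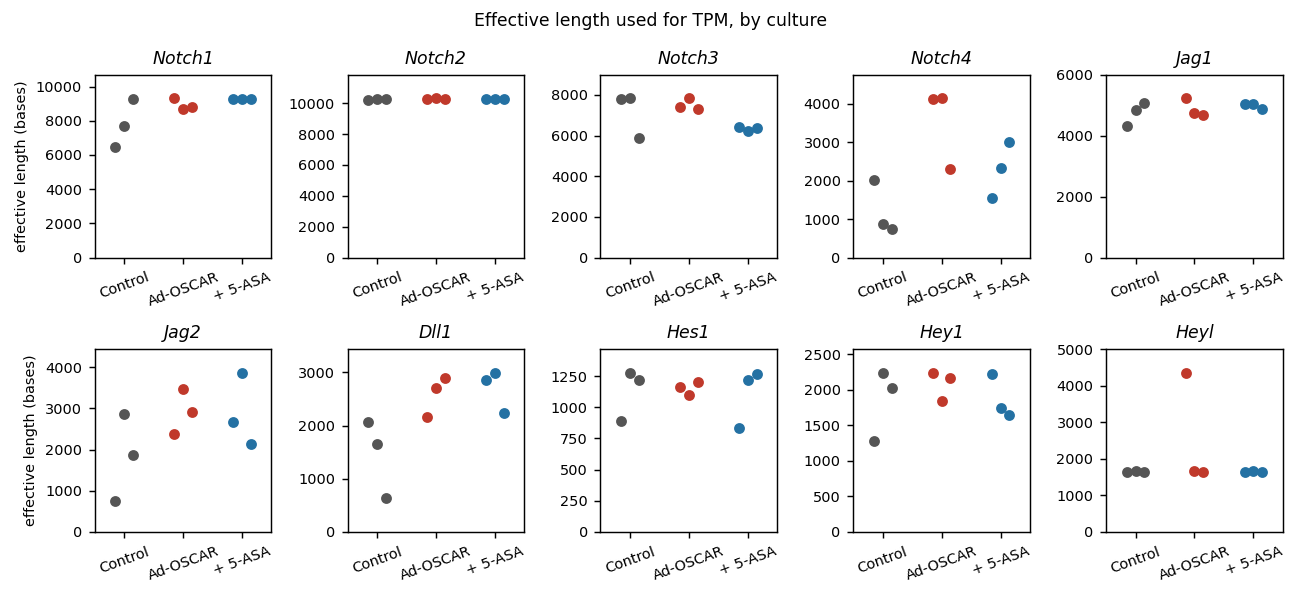
Effective length in bases that the deposited tables give for each of the 10 genes in each culture, by group. The points of Notch2 lie between 10233 and 10311 bases, while those of Notch4, Jag2 and Dll1 spread between 638 and 4137 bases and reach their lowest in a Control culture.

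Effective length varied most for the weakly expressed genes. Calls of better expressed genes were lost on TPM as well, as given above for Notch1 with Ad-OSCAR and Jag1 with 5-ASA. In the comparison of 5-ASA against Ad-OSCAR, TPM moved the median of all genes by -0.0928 log2. The highest effective length was 5.48 times the lowest for Notch4, 5.12 times for Jag2, 4.69 times for Dll1, 1.76 times for Hey1 and 1.53 times for Hes1, and 1.44 times or less for Notch1, Notch3, Jag1 and Notch2. Over the 15362 genes tested the median of this ratio was 1.1, and 11.8% exceeded 1.5, against 5 of the 9 genes here. An effective length that differs between cultures stands for a different estimated mix of transcript isoforms, which is least certain where counts are few. For Jag2 the median length was 1858 bases in Control, 2910 in Ad-OSCAR and 2670 in Ad-OSCAR + 5-ASA cultures. Levels of Notch4, Jag2 and Dll1 in TPM therefore carry this spread as well as that of the counts, and the fold changes given for them are those of the counts.

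The rest of the pathway was read from a list of 55 other genes, of which 46 passed the filter. With Ad-OSCAR, 19 were higher and 14 lower at an adjusted p below 0.05, 71.7% of those tested, near the 65.0% of all genes that passed (32.7% higher, 32.2% lower), and the median log2 fold change was 0.04. The counts by role below are to be read against the same shares. Among the other ligands, Dlk2, a Delta-like protein that is known to hold Notch in check, was at 11.8, 12.1 and 11.8 CPM in Control and at 1.39, 1.31 and 1.24 CPM in Ad-OSCAR cultures. It fell by 3.18 on the log2 scale (SE 0.15), and its relative Dlk1 fell by 0.33 (SE 0.09). Dll3 and Dll4 had 0 counts in Control and at most 4 in any other culture. Dlk2 overlaps Abcc10 on the opposite strand.

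Of the 5 genes tested that modify the receptors, Lfng, Rfng, Pofut1 and Furin fell and Poglut1 rose with Ad-OSCAR, where 32.2% of all genes fell and 32.7% rose. Lfng (Lunatic fringe) adds a sugar to the receptor that changes which ligands it answers to. It stood at 2.45, 2.22 and 1.96 CPM in Control and 0.237, 0.246 and 0.255 CPM in Ad-OSCAR cultures. It fell by 3.14 on the log2 scale (SE 0.29), down to 6 or 7 counts. Lfng was admitted by the filter only through its Control counts, so against Control it could be tested only as a fall. Furin, the protease that cuts the receptor on its way to the surface, fell by 0.49 (SE 0.06). Of 4 ligases that drive ligand uptake, 1 rose and 1 fell. Neurl1b went from 7.50, 6.62 and 7.03 CPM in Control to 0.543, 0.902 and 0.800 CPM in Ad-OSCAR cultures (log2 -3.24, SE 0.19), and Mib2 rose by 0.48 (SE 0.07). Of 9 genes of receptor cleavage, 4 rose and 2 fell, led by the presenilin Psen2 at 0.61 (SE 0.08) and Aph1a, another subunit of gamma-secretase, at -0.44 (SE 0.05).

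In the nucleus, 5 of 8 genes of the activating complex rose and 1 fell with Ad-OSCAR, where 32.7% of all genes rose and 32.2% fell. Rbpj, which encodes the DNA-binding partner of all 4 receptors, stood at 156, 162 and 161 CPM in Control, 214, 215 and 222 in Ad-OSCAR and 263, 271 and 265 in Ad-OSCAR + 5-ASA cultures. The 3 groups formed separate steps, as they did for Jag1. The Mastermind-like coactivator Maml3 rose by 1.46 (SE 0.11), from 3.45 to 3.65 CPM in Control to 8.91 to 10.9 CPM in Ad-OSCAR cultures, and Maml2 rose by 0.57 (SE 0.05). Several other annotated genes lie within Maml3 on the same strand. Of 9 corepressor genes 5 rose and 2 fell, with Tle4 at -0.93 (SE 0.21) and Tle1 at 0.49 (SE 0.05). Of 8 genes of receptor turnover 3 rose and 2 fell, with the Deltex ligases Dtx3 at 0.78 (SE 0.06) and Dtx4 at 0.53 (SE 0.09). Of 7 further targets, only Hes6 passed the filter, with a log2 difference of -0.11 (95% interval -0.27 to 0.05). Hey2 had 5, 10 and 13 counts in Control and 1 to 4 counts in the other 6 cultures, and was not tested.

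**Figure D5:**
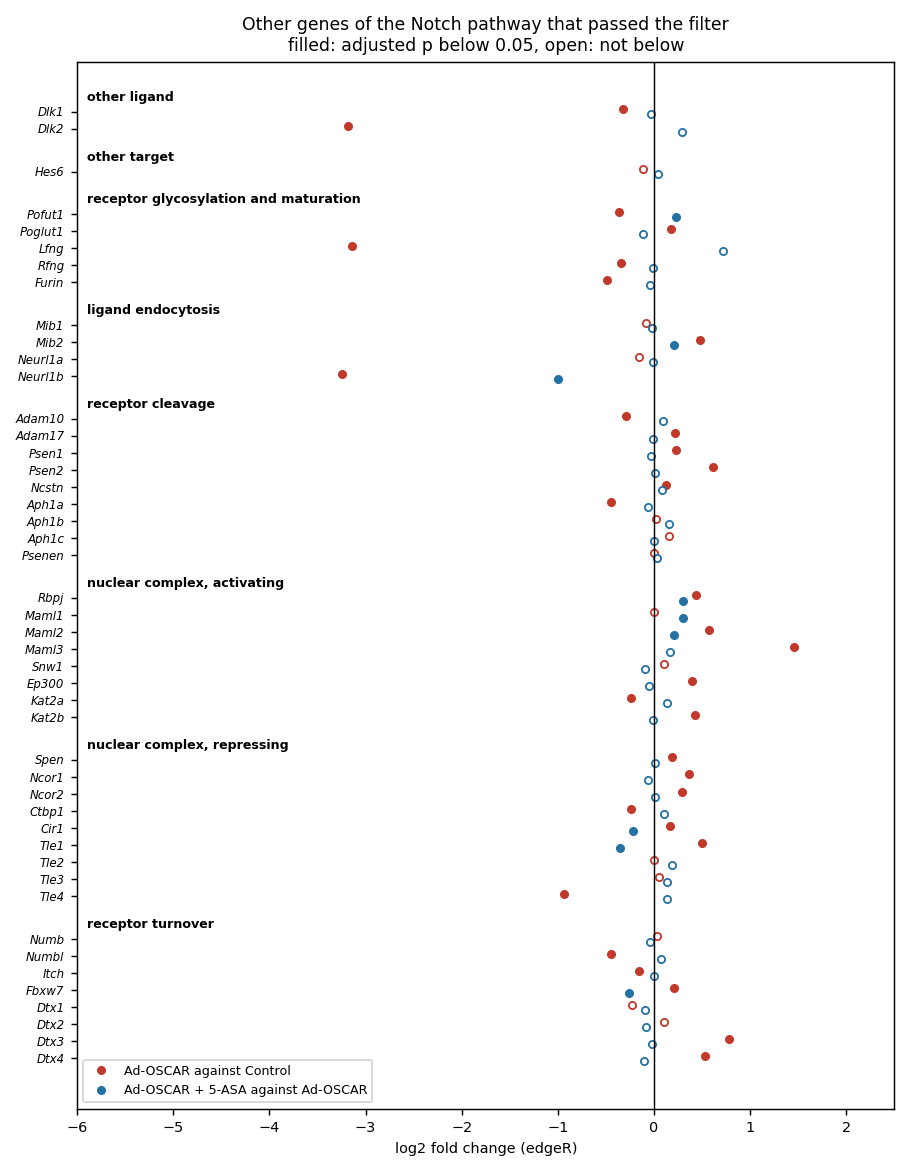
Fitted log2 fold changes (edgeR, horizontal axis) of the 46 other pathway genes tested, grouped by role, with Ad-OSCAR against Control in red and Ad-OSCAR + 5-ASA against Ad-OSCAR in blue; filled points had an adjusted p below 0.05. Dlk2, Lfng and Neurl1b stand below -3 with Ad-OSCAR and Maml3 stands highest at 1.46, while most blue points lie near 0.

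With 5-ASA, 5 of the 46 genes were higher and 4 lower than in untreated Ad-OSCAR cultures, 19.6% of those tested, near the 17.8% of all genes that passed (10.4% higher, 7.38% lower), and the median log2 fold change was 0.0026. Of the activating complex, Maml1 rose by 0.31 (SE 0.06, adjusted p = 0.00101), Rbpj by 0.30 (SE 0.04, adjusted p = 5.64e-05) and Maml2 by 0.21 (SE 0.05, adjusted p = 0.0061), and 0 of its 8 genes fell. Each of these 3 calls was kept in 16 of 17 alternatives, TPM being the exception. Pofut1, which adds the fucose that Fringe enzymes extend, rose by 0.23 (SE 0.04), whereas with Ad-OSCAR it fell by 0.36 (SE 0.04). The ligand ligase Mib2 rose by 0.21 (SE 0.07) and Neurl1b was lower by a further log2 difference of -0.996 (SE 0.30), at 16 to 22 counts in untreated and 7 to 11 in treated cultures. Both calls were less firm, kept in 11 of 17 and 10 of 16 alternatives.

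The corepressor Tle1 and the ubiquitin ligase subunit Fbxw7, which marks the intracellular part of Notch for breakdown, had risen with Ad-OSCAR and fell with 5-ASA. Tle1 stood at 22.8, 22.1 and 23.1 CPM in Control, 31.1, 33.0 and 31.7 in Ad-OSCAR and 24.4, 25.1 and 25.3 in Ad-OSCAR + 5-ASA cultures, and it fell by 0.36 with 5-ASA (SE 0.05, adjusted p = 9.69e-05). Fbxw7 stood at 17.3, 17.5 and 17.2 CPM, then 20.4, 19.2 and 20.6 CPM, then 16.6, 17.7 and 15.8 CPM in the same order of groups, and it fell by 0.26 (SE 0.07, adjusted p = 0.0081). Both 5-ASA calls were kept in all 17 alternatives. The rise with Ad-OSCAR was kept in 17 of 17 for Tle1 and in 15 of 17 for Fbxw7 (adjusted p up to 0.0612), and both comparisons use the same Ad-OSCAR cultures. The corepressor Cir1 fell by 0.22 with 5-ASA (SE 0.06, adjusted p = 0.0164) and kept its call in 15 of 17. None of the 9 genes of receptor cleavage passed with 5-ASA by edgeR. Lfng did not pass either, with 9, 10 and 13 counts in treated and 7, 6 and 7 in untreated cultures (log2 0.72, 95% interval -0.06 to 1.49).

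Markers of other cell types that such cultures could hold were read beside these results. Of 8 macrophage markers 3 passed the filter, and C1qa and C1qb were at 0 counts in every culture. Cd68 rose and Mrc1 fell with Ad-OSCAR, and Csf1r did not pass the test. The summed level was 3.70 to 5.65 TPM in Control, 14.0 to 14.3 in Ad-OSCAR and 9.47 to 11.1 in Ad-OSCAR + 5-ASA cultures. Most of this sum was Cd68 alone, with means of 3.46, 13.5 and 9.76 TPM in the same order of groups. Of 6 markers of synovial fibroblasts, Prg4, Dcn and Pdpn rose and Thy1, Pdgfra and Col1a1 fell with Ad-OSCAR, and the summed level was 4768 to 4918, 5545 to 5742 and 5811 to 5982 TPM. Of the 5 mural markers tested, Rgs5 and Pdgfrb rose with 5-ASA against Ad-OSCAR, and Cspg4, Myh11 and Des did not pass the test. The part of these markers in the Notch results was not tested.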

How the data were processed

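RNA from 9 cultures, 3 per group, was sequenced. Per the submitters' processing notes and the study's methods, the authors aligned trimmed reads to GRCm38 with STAR 2.7.1a and counted with RSEM 1.3.1. The deposited estimated counts were not scaled and were rounded here. Of all listed genes, those at 0 included, 8.97% to 10.1% per culture had a count with any decimal part. The deposited TPM values, which RSEM scaled to the library and to effective length, were used for levels and shares. The strand setting is not given in the sources used here, so overlapping genes are named. Of 55471 identifiers, 55144 were found in GENCODE M21, which gave symbols and GRCm38 coordinates.

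Counts were tested in R 4.3.3 with edgeR 4.0.16 (TMM, filterByExpr by group, quasi-likelihood F test) in one fit of all 9 cultures, over 15362 genes (biological coefficient of variation 5.11%), with Benjamini-Hochberg adjustment over all of them. Standard errors were taken from F and the log2 fold change. Alternatives were RLE and upper-quartile scaling, DESeq2 1.42.0, no filter, a filter at 10 counts or more per culture, a fit of the compared groups alone, the replicate number as a block, limma 3.58.1 on log2(TPM + 0.1) for genes with at least 0.5 TPM in 3 cultures, shares from CPM per mean effective length, and each culture left out. A fold change on the log2(TPM + 0.1) scale understates the change of low genes.

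All 10 genes are named. Of the other pathway genes, values are given for the 2 largest passing changes of each role and comparison, and the values of Dll3, Dll4, Hey2 and Hes6, of Maml2, Pofut1 and Rbpj where they rank lower, and of Lfng with 5-ASA were added after they were seen. Members and lists were chosen with earlier results of these data known. The labels do not say whether replicates came from separate animals, so p-values measure the spread between these cultures, which may be technical. Replicates differed beyond sampling noise (chi-square per degree of freedom 4.21 to 8.13). Intervals and floors cover the stated error only. Sequences are from RefSeq. Figures were made with Python 3.11.15 and matplotlib 3.10.9.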

Additional observations from a re-analysis of the deposited data

How the results depend on the processing

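Counts of genes past the thresholds stayed within 1.5 times the reported count in 291 of 306 repeats, and the direction and call of single genes were kept in 424 of 450, with 13 calls lost in the same direction, 2 gained and 11 directions turned, of which Notch4 on TPM with Ad-OSCAR and with 5-ASA against Control lost their calls as well. With limma on TPM, 1 gene rather than 2 was higher past the study's limits with Ad-OSCAR, without Dll1 (log2 1.25), 0 rather than 1 was higher and 0 rather than 1 lower with 5-ASA against Ad-OSCAR, and 3 rather than 5 were past the limits with 5-ASA against Control. Of the other pathway genes, TPM gave 1 higher rather than 5 with 5-ASA, and 12 rather than 19 against Control. DESeq2 called 0 genes lower with 5-ASA. Leaving out 1 culture, the genes lower with 5-ASA ranged from 0 to 2, the 2 being Notch1 and Notch3 without treated culture 3, and the other pathway genes lower with 5-ASA ranged from 2 to 4, lowest without Ad-OSCAR culture 3.

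On TPM the direction turned for Notch4 with Ad-OSCAR (log2 -0.12), with 5-ASA (0.0577) and with 5-ASA against Control (-0.0594), for Notch1 with 5-ASA against Control (-0.22), for Notch2 with 5-ASA (-0.0672) and for Jag2 with Ad-OSCAR (-0.66). For Notch4 and Jag2, TPM divides the count by an effective length that varied between cultures, as given above. For Notch2 the highest length was only 1.01 times the lowest. With 5-ASA against Ad-OSCAR, TPM moved the median of all genes by -0.0928 log2, and its part in the Notch2 turn was not tested. Without 1 culture the direction turned for Notch2 with 5-ASA (range -0.0223 without treated culture 3 to 0.0737 without treated culture 2), for Jag2 with Ad-OSCAR (range -0.13 without Control culture 2 to 0.38 without Control culture 3, and -0.04 without Ad-OSCAR culture 1) and for Jag2 with 5-ASA against Control (range -0.35 without treated culture 1 to 0.18 without Control culture 3, and 0.02 without treated culture 3). None of these Notch2 and Jag2 differences passed the test in either analysis. The filter at 10 counts in every culture gave no value for Notch4 and Hey1, and TPM none for Hey1. Other scalings moved the median of all genes by less than 0.1 log2.

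Replicate numbers did not mark pairs. The correlation of same-numbered deviations averaged -0.021 over 9 pairs (-0.0724 to 0.0402). With the replicate block, 7 genes were higher with Ad-OSCAR and 1 was higher and 1 lower with 5-ASA, the same counts as without it, and Notch3 with 5-ASA had a log2 change of -0.32 (adjusted p = 0.0171). Of the other pathway genes, the block gave 4 rather than 5 higher with 5-ASA, Mib2 having an adjusted p of 0.0606, and 12 rather than 13 lower against Control.

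Depth limited Notch4, Jag2, Dll1 and Hey1 most, each with 25 counts or fewer in every Control culture. The shares of Jag1, Notch1, Notch2 and Notch4 moved by more than 1 SD in some groups when CPM per mean effective length replaced TPM (Jag1 in Control, 86.0% in place of 77.1%, Notch4 in Control, 0.622% in place of 1.40%, and Notch1 with 5-ASA, 9.38% in place of 8.72%).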

Other observations

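The genes whose pattern over the 9 cultures was most like that of Notch1, by Pearson's r of log2 CPM among 9266 genes with a mean of at least 10 CPM, were Trafd1 (r = 0.985), Trrap (0.970) and Zcchc14 (0.965). Trrap, a scaffold of histone acetyltransferase complexes, had a mean of 154 CPM in Control, 178 in Ad-OSCAR and 168 in Ad-OSCAR + 5-ASA cultures. For Hes1 they were Timm8b (0.983), Sin3a (0.982) and Yod1 (0.979). Sin3a, a scaffold of histone deacetylase complexes, had a mean of 68.0 CPM in Control, 82.0 in Ad-OSCAR and 77.7 in Ad-OSCAR + 5-ASA cultures. In all, 42 genes had an r over 0.9 with Notch1 and 1005 with Hes1. The 9 points share libraries and fall into 3 groups, so these correlations are a description of the group pattern, and no test was made.

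The receptors and Rbpj can be set side by side per transcript length. Rbpj stood at 67.5, 75.2 and 79.6 TPM in Control, 97.3, 96.0 and 96.4 in Ad-OSCAR and 102, 107 and 111 in Ad-OSCAR + 5-ASA cultures. In each culture this was above the summed level of the 4 receptors, whose highest value was 50.3 TPM.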
